A study of Rattus norvegicus with 4 samples.

Results

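Among dispersed pituitary cells of adult female rats, 102 of 20381 cell barcodes carried RNA of general myeloid genes but almost no RNA of complement C1q, the gene group that marks the resident macrophages of this gland. The cells were chosen by their counts of unique molecular identifiers (UMIs, one per captured RNA molecule). At least 3 of the 5 myeloid genes Tyrobp, Fcer1g, Ctss, Laptm5 and Aif1 had a UMI, and C1qa, C1qb and C1qc together had at most 1. In addition, each barcode held at least 1000 UMIs and 500 genes, at most 20% mitochondrial UMIs, and less than 10% of its UMIs in each of the hormone genes Prl, Gh1 and Pomc. They are called C1q-low cells here, and the 862 cells that met the same rule with 2 or more C1q UMIs are called C1q-high cells.

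All animals were female Sprague Dawley rats aged 75 days, taken at random stages of the estrous cycle, with no treatment or genetic change named in the labels. Pituitaries from 30 of them were dissected into anterior and posterior lobes, which gave 1 anterior and 1 posterior library. Another 30 pituitaries were dispersed whole as 1 suspension, and that suspension filled 2 lanes (whole-gland lanes 1 and 2), which are technical repeats. Cells were released with trypsin and EDTA and their messenger RNA was counted by droplet sequencing (10x Chromium 3' kit, which reads the 3' end of transcripts). Because animals were pooled, the 3 suspensions are the replicates, the anterior and posterior ones share their animals, and p-values cover the spread between suspensions only.

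Myeloid cells comprise macrophages, monocytes and dendritic cells. Resident macrophages take up and digest debris and make C1q, the first component of the classical complement pathway. Monocytes arrive from blood, conventional dendritic cells display peptides to T cells on MHC class II molecules, and plasmacytoid dendritic cells are specialised producers of type I interferon. Natural killer (NK) cells are lymphocytes, yet they carry the signalling adaptors encoded by Tyrobp and Fcer1g and so can meet a rule built on these genes.

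The values used for the choice were as follows. No C1q UMI was found in 94 of the C1q-low cells and 1 UMI in 8. Just outside that limit, 10 C1q-high cells had 2 UMIs and 3 had 3, while 811 had 10 or more and the median was 68. Of the myeloid genes, 3 of 5 were found in 38 C1q-low cells, 4 in 35 and 5 in 29. Another 42 barcodes with at most 1 C1q UMI had 2 of the 5 genes and were left out, as were 6 that met the gene rule but held 10% or more of a hormone gene. Tyrobp had a UMI in 101 of the 102 cells, Fcer1g in 89, Laptm5 in 87, and Ctss and Aif1 in 61 each.

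Checked against markers, the label of myeloid cells without C1q held only for part of the group. Cd74 had a UMI in 63 of 102 cells, RT1-Db1 in 44 and RT1-Bb in 38, so the MHC class II genes given as markers were not found in all of them. At least 2 of 10 T and NK cell genes were found in 30 cells, and at least 3 markers of endothelial cells, folliculostellate cells (the non-endocrine glia-like cells of the anterior lobe) or fibroblasts in 25. The other cells with neither numbered 50. No cell had 2 or more of the 5 B cell genes used for the choice, Cd79a and Cd79b among them. The Scrublet doublet score was above 0.25 in 4 of 102 C1q-low and 30 of 862 C1q-high cells, and these cells were kept in the main values.

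The 4 libraries held 61981865 to 72754998 UMIs, and 3936 to 5714 barcodes each passed the limits. The C1q-low cells together held 915836 UMIs, with a median of 4739 per cell (range 1492 to 93767), against 5493 in C1q-high cells and 12558 in the 13149 hormone-rich cells, whose share of Prl, Gh1 or Pomc was at least 10%. Their median share of mitochondrial UMIs was 7.29% and of Prl UMIs 0.533%. Of 178 barcodes whose bases occurred in more than 1 library, none was a C1q-low cell and 3 were C1q-high cells.

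The share of C1q-low cells ranged from 0.350 to 0.737% of a library. They made up 29 of 3936 barcodes in the posterior library, or 0.737% (exact 95% binomial interval 0.494 to 1.06%, counting error only), and 21 of 5666 in the anterior library, or 0.371% (0.230 to 0.566%). Whole-gland lane 1 had 20 of 5714 (0.350%, 0.214 to 0.540%) and lane 2 had 32 of 5065 (0.632%, 0.433 to 0.891%). The intervals of the anterior and posterior libraries overlapped, as did those of the lanes. With 1 library per lobe there was no test. Which library had the highest share changed with the limits. Lane 2 was above the posterior library with no C1q UMI allowed (0.632 against 0.610%), with 4 of 5 myeloid genes required (0.474 against 0.381%) and without members with stromal markers (0.553 against 0.432%). With a minimum of 3000 UMIs the anterior share was 0.167% (9 cells) and the posterior share 0.853% (28 cells). The median depth of the members was 2959 UMIs in the anterior library and 7137 in the posterior one.

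**Figure D1:**
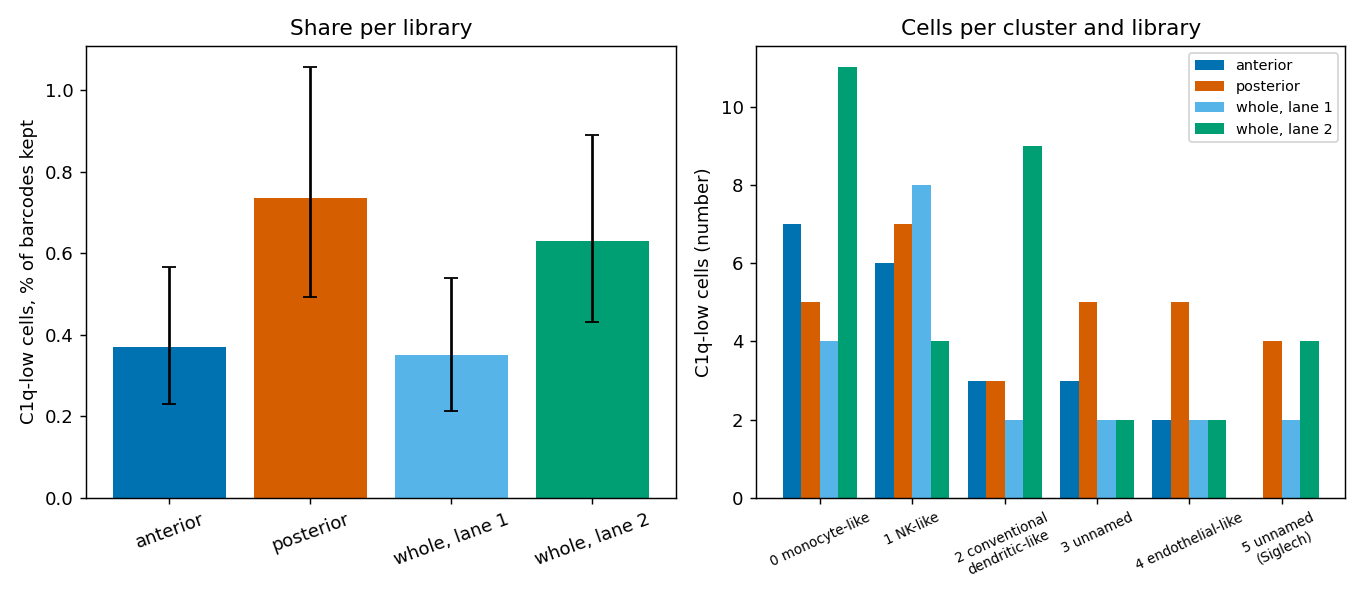
Left, C1q-low cells as a percentage of the barcodes kept in each library, with exact 95% binomial intervals as error bars; right, the number of C1q-low cells of each cluster in each library. The posterior bar is highest at 0.737%, lane 2 of the whole glands has 11 cells of cluster 0 and 9 of cluster 2, and the anterior library has no cell of cluster 5.

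Grouped by their own expression, the C1q-low cells fell into 6 clusters (Leiden resolution 0.8). Clusters were called after a cell type only where at least 3 markers of its list were at least 2-fold above the other members and found in at least 25% of the cluster's cells, and where no other type had more markers among the 10 leading genes. That scoring was set after the clusters had been seen, and the genes of a cluster are given as a description, since the same genes made the clusters. By the number of such markers alone, folliculostellate cells led in cluster 3 (7) and plasmacytoid dendritic cells in cluster 5 (6). The condition on the leading genes left both without a name. At resolution 1.2 the 6 clusters were the same cells, and at 0.4 clusters 3 and 4 were joined into 1 of 23 cells while the other 4 stayed as they were.

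Cluster 0, monocyte-like, was the largest with 27 cells (7 anterior, 5 posterior, 4 and 11 in the whole-gland lanes) at a median of 3219 UMIs. Plac8, a marker of circulating monocytes, had a UMI in 27 of 27 cells, at 2044 and 2197 counts scaled to 1000000 UMIs of the summed cells (CPM) in the anterior and posterior cells and 3122 and 3765 CPM in whole-gland lanes 1 and 2. Lyz2, the lysozyme of phagocytes, was found in all 27 at 9830 CPM (posterior) to 36012 CPM (lane 1), with 13 to 436 UMIs per cell. Both genes were thus present in every cell of the cluster and every library. In hormone-rich cells, at a median of 12558 UMIs, Plac8 had a UMI in 0.0837% of cells and Lyz2 in 3.13%. Neither gene was confined to this cluster. Plac8 was also found in 10 of 10 cells of cluster 5, and Lyz2 in 17 of 17 of cluster 2 and 834 of 862 C1q-high cells. Of 13 monocyte markers 5 stood out, Fn1, Cd14, Plac8, Msrb1 and Fcnb, while Ly6c, Ace and Cd300e had no UMI.

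Not all monocyte-like cells were alike. Fcnb, a ficolin of monocytes and neutrophils, had 149 UMIs in 12 of 27 cells, and 1 cell held 38.3% of them. By library it stood at 60.1 and 57.8 CPM in the anterior and posterior cells against 4360 and 1524 CPM in the whole-gland lanes. Its high level was therefore seen in the whole-gland suspension alone. S1pr4 or S1pr5, receptors for the lipid sphingosine 1-phosphate that guides cells between blood and tissue, had a UMI in 14 of the 27 cells, and only 2 cells had both one of these and Fcnb. The other genes with the largest ratios to the remaining members were Defb14, a defensin, in 13 cells, Hcar2, a receptor of hydroxycarboxylic acids, in 8, Olr1, a receptor of oxidised lipoproteins, in 12, and Cd300le, a CD300 family receptor, in 16. Il1b, an inflammatory cytokine, was found in 25 of 27 cells at 3747 CPM, against 1253 CPM in C1q-high cells. Of 13 tissue macrophage markers, 3 stood above the other members, Csf1r in 22 of 27 cells, Cd68 in 21 and Adgre1 in 8, and the other 10, Mrc1, Cd163, Lyve1 and Folr2 among them, had no UMI. The NK genes Nkg7, Gzmm and Ncr1 also had none, and of neutrophil markers S100a9 was at 0 and S100a8 was found in 2 cells.

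Cluster 1, NK-like, held 25 cells (6 anterior, 7 posterior, 8 and 4 in the lanes). Nkg7, a cytotoxic granule protein, was found in 25 of 25 cells, with 4 to 36 UMIs each, at 3556, 2934, 2818 and 2039 CPM in the anterior, posterior, lane 1 and lane 2 cells. Prf1, the pore-forming protein perforin, was found in 23 at 901 to 1185 CPM over the libraries, and the receptor genes Klrd1 and Ncr1 in 22 and 16. Ccl5, a chemokine of cytotoxic lymphocytes, stood at 9656 CPM (posterior), 13661 CPM (anterior), 14788 CPM (lane 1) and 8870 CPM (lane 2). Each of these genes was found in the cells of all 4 libraries. Its 5 leading genes were Gzmm, a granzyme, in 20 cells, Dok2, a signalling adaptor, in 21, Scin, an actin-severing protein, in 18, Ikzf3, a lymphoid transcription factor, in 14, and Faslg, the death ligand FasL, in 20.

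Cd3e, Cd3d and Cd3g, components of the T cell receptor, had no UMI in the NK-like cells, which allows up to 27.9 CPM at 3 UMIs. In the 49 cells that met a T and NK rule (3 of 10 such genes but fewer than 3 myeloid genes) they stood at 607, 528 and 844 CPM. These 3 genes were among the 10 of that rule, so their level there followed in part from the choice. Of 14 T cell markers, 5 stood above the other members in the NK-like cells, Cd247, Lck, Cd2, Cd8a and Skap1. The class II chaperone Cd74 had 1 UMI in the whole NK-like cluster. Of the myeloid genes of the rule, Tyrobp, Fcer1g and Laptm5 had a UMI in 25 of 25 NK-like cells, whereas Ctss, a lysosomal protease, was found in 2 and Aif1, a macrophage actin-binding protein, in 3. These cells met the rule through the same 3 genes throughout.

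Cluster 2, conventional-dendritic-like, held 17 cells (3 anterior, 3 posterior, 2 and 9 in the lanes) at a median of 11405 UMIs. Of 14 dendritic markers 10 stood out. Flt3, the receptor for the dendritic growth factor FLT3 ligand, had a UMI in 15 of 17 cells, Clec9a, a receptor for dead cells, in 11, Xcr1, the receptor of the chemokine XCL1, in 10, and Batf3, a transcription factor of cross-presenting dendritic cells, in 12. Xcr1 stood at 194, 233, 163 and 367 CPM in the anterior, posterior, lane 1 and lane 2 cells. The next genes by ratio were the class II gene RT1-DOa in 11 cells and the uncharacterised AC120486.10 in 11. Cxcl11, with the largest ratio, came from 1 cell, and Ccl17, a chemokine of activated dendritic cells, from 2.

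MHC class II genes were highest in this cluster. RT1-Db1 stood at 23387, 21728, 27215 and 22137 CPM in its anterior, posterior, lane 1 and lane 2 cells, so the 4 libraries lay close together. In the monocyte-like cells RT1-Db1 was at 1086 CPM, with a UMI in 8 of 27, and in NK-like cells at 27.9 CPM. C1q-high cells lay between, at 5963 CPM with a UMI in 690 of 862. Cd74 showed the same order, with 32862 CPM in cluster 2, 4551 in cluster 0, 9.29 in cluster 1 and 12118 in C1q-high cells. UMIs of all 5 genes RT1-Da, RT1-Db1, RT1-Ba, RT1-Bb and Cd74 were found in 16 of 17 cells of cluster 2 and in 5 of 27 of cluster 0.

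Within cluster 2, Xcr1 or Clec9a, which mark the cross-presenting (type 1) subset, had a UMI in 11 cells, and Clec10a, a lectin of the type 2 subset, in 9. Both kinds of marker were found together in 5 cells. Clec10a had 59 UMIs, of which 1 cell held 35.6%, and it was also found in 238 of 862 C1q-high cells, whereas Xcr1 was found in 1 of these.

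Slpi, a secreted inhibitor of leukocyte proteases, was found in every C1q-low cell with Xcr1 or Clec9a. Over all members, 13 cells had a UMI of Xcr1 or Clec9a, and all 13 also had Slpi. In them Slpi had 48 to 268 UMIs per cell, with a median of 125, and among the other 89 members it was found in 14, with at most 9. Slpi reached 9963 CPM in cluster 2 (14149, 7778, 2602 and 11548 CPM in the anterior, posterior, lane 1 and lane 2 cells), with a UMI in 12 of 17 cells. A lower level, 376 CPM in 10 of 27 cells, was found in cluster 0, and no UMI in clusters 1 and 5. Of 862 C1q-high cells, 1 had Slpi, with 79 UMIs, and that cell also had Xcr1 or Clec9a. A second C1q-high cell with Xcr1 or Clec9a had no Slpi. In hormone-rich cells 0.106% had a UMI of Slpi.

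Cluster 5 also stayed unnamed. Of 10 plasmacytoid dendritic markers 6 stood out in it, yet among its 10 leading genes 2 were B cell markers and 1 a T cell marker against 1 of its own. It held 10 cells, 4 of them posterior, 2 and 4 in the whole-gland lanes and none anterior. Siglech, a sialic acid-binding receptor of plasmacytoid dendritic cells and microglia, had 454 UMIs, 15 to 73 in each of the 10 cells, and none in the other 92 members or the 862 C1q-high cells. It stood at 4849, 6437 and 5287 CPM in the posterior, lane 1 and lane 2 cells, and had no UMI in the anterior members. Tcf4, the transcription factor that specifies plasmacytoid dendritic cells, had a UMI in 10 of 10 cells at 1282 CPM, and Irf8, a myeloid and dendritic factor, in 10 at 1802 CPM. Flt3 and Runx2 were also found in all 10. Runx2 is a factor used by plasmacytoid dendritic cells to leave bone marrow. Tcf4 was not confined to cluster 5, with a UMI in 11 of 11 cells of cluster 4 and 9 of 12 of cluster 3.

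Genes known from lymphocytes were also found in cluster 5. Jchain, the joining chain of secreted antibodies, which plasmacytoid dendritic cells also make, had 374 UMIs in 10 of 10 cells, and Fcmr, an IgM receptor, 36 UMIs in 8. Cd3g, a T cell receptor component, had 28 UMIs in 7 of 10 cells, while Cd3e and Cd3d had none, and it was found in no other C1q-low cell. Of B cell genes, Pax5 was at 0 and Ms4a1 had 1 UMI. AABR07060872.1, AABR07034739.1 and Cyb561a3, an iron-reducing membrane protein, completed the 5 leading genes. Of the rule genes, Aif1 had no UMI in these cells.

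Clusters 3 and 4 carried non-myeloid genes. Cluster 4, endothelial-like, held 11 cells (2 anterior, 5 posterior, 2 in each lane). Emcn, Plvap, Ramp2, Flt1 and Eng, genes of vessel lining and of its fenestrated form, led it, each with a UMI in 11 of 11 cells. Plvap, the protein of endothelial diaphragms, stood at 1549, 4614, 3713 and 3037 CPM over the 4 libraries, against 154 CPM in C1q-high cells. Tyrobp was found in 10 of the 11 cells at 539 CPM, below the 4750 CPM of cluster 0, and Fcer1g in 9. None of these cells had a Scrublet score above 0.25.

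In cluster 3, 7 folliculostellate and 6 hormone markers stood out. It was left without a name, since its 10 leading genes held the hormone genes Tshb and Cga but only Aldoc of the folliculostellate markers. Of the Cga UMIs in this cluster, 98.4% came from 1 cell. The cluster held 12 cells (3 anterior, 5 posterior, 2 in each lane) with 1 to 8 UMIs of Tyrobp each, 96.3 CPM in all. Its leading genes were Gpha2, a glycoprotein hormone subunit, in 8 cells, Mt3, a metallothionein, in 10, Dapl1 in 9, Tshb, the thyrotropin subunit, in 3, with 99.0% of its UMIs from 1 cell, and the keratin Krt18 in 6. S100b, the classic marker of folliculostellate cells, was found in 10 of 12. The 12 cells made up 11.8% of the members but 34.0% of their UMIs, and 1 of them held 93767. In 1 cell of this cluster 266 UMIs of RT1-Db1 were found beside 8 of Xcr1, 6 of Clec9a and 131 of Slpi. At least 3 stromal markers were found in 11 of 12 cells of cluster 3 and 11 of 11 of cluster 4, against 3 of 10 of cluster 5 and none of clusters 0 to 2. Whether these 23 barcodes each held 1 cell or more was not tested. Scrublet scored 2 of the 12 above 0.25.

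**Figure D2:**
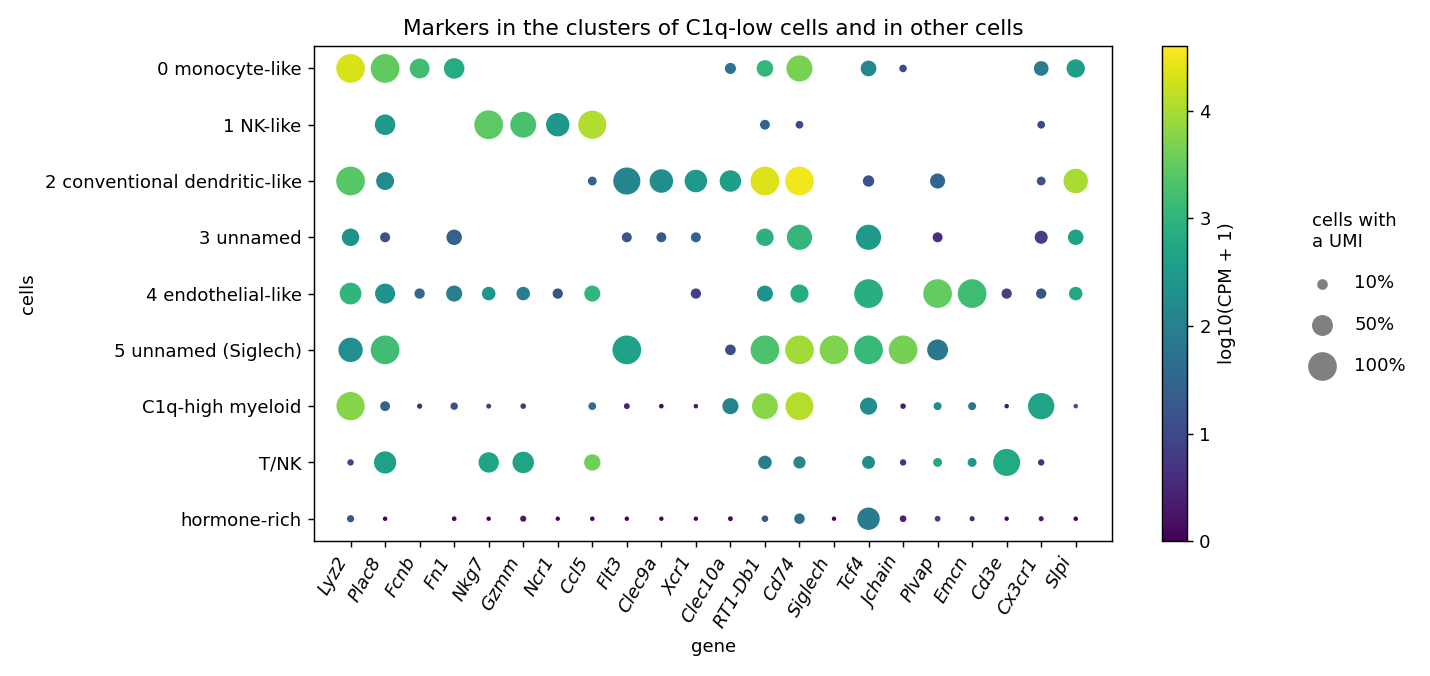
Genes (horizontal) in the 6 clusters of C1q-low cells and in C1q-high, T and NK, and hormone-rich cells (vertical); dot area is the percentage of cells with a UMI and colour is log10(CPM + 1), with no dot at 0 UMIs. Nkg7 is in 25 of 25 cells of cluster 1, Xcr1 in 10 of 17 of cluster 2, Siglech in 10 of 10 of cluster 5 and Emcn in 11 of 11 of cluster 4.

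**Figure D3:**
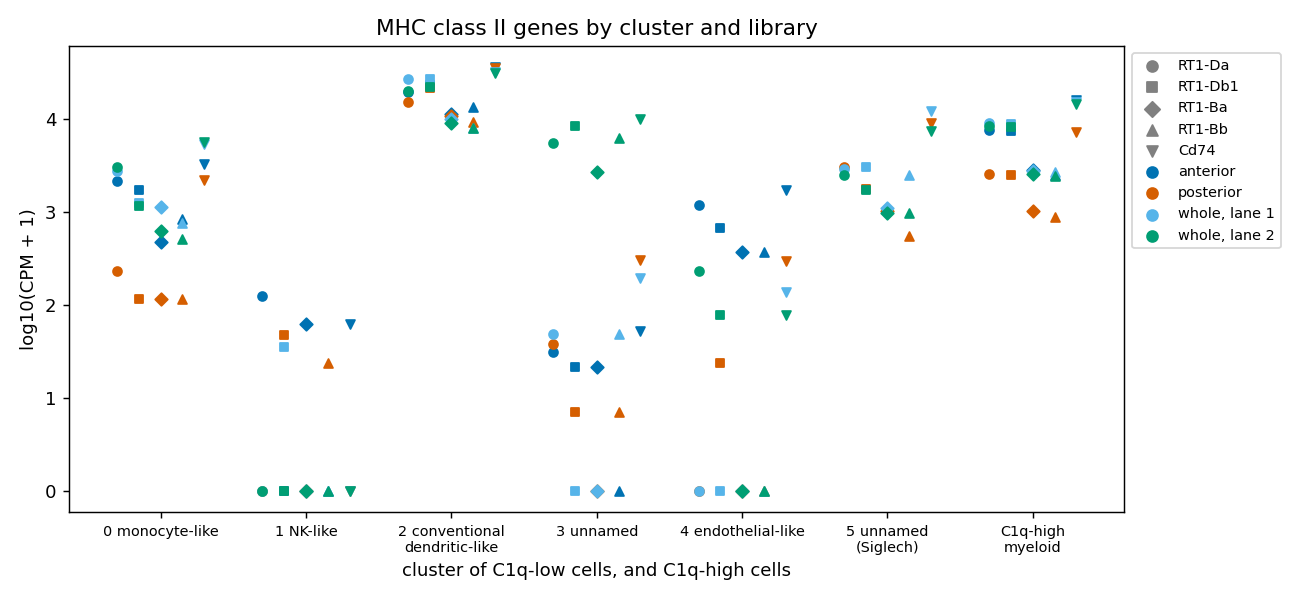
MHC class II genes as log10(CPM + 1) in each cluster of C1q-low cells and in C1q-high cells, with 1 point per gene (shape) and library (colour). All points of cluster 2 lie above those of the C1q-high cells for the same gene, and in cluster 1 the highest is RT1-Da at 125 CPM in the anterior cells.

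The C1q-low cells, as a mixed group, were then compared with the far more numerous C1q-high cells of the same suspensions. UMIs were summed per class and suspension, and 7657 genes outside the rule were tested with edgeR's quasi-likelihood test. Much of the RNA in the C1q-low sums came from members with stromal markers. Without them the anterior sum held 53231 UMIs instead of 202586. The posterior sum held 109438 instead of 353882 and the whole-gland sum 250480 instead of 359368. In the anterior C1q-low sum, 1 cell held 87795 UMIs. At least 3 stromal markers were also found in 103 of 862 C1q-high cells. Without these the C1q-high sums held 702012 instead of 1233443 UMIs (anterior), 1887753 instead of 2469992 (posterior) and 1700150 instead of 2621263 (whole gland). The differences are therefore not those of myeloid cells alone. A gene counts as called, and as higher or lower, where the p adjusted by Benjamini and Hochberg fell below 0.05 and the difference was 2-fold or more. The classes were split by C1q counts of the same cells, so the calls describe what else differed and are not independent of that choice. There were 128 genes higher in C1q-low cells (1.67% of those tested) and 133 lower (1.74%). Of the 128, 45 had their highest level in cluster 1, 36 in cluster 0, 21 in cluster 4, 16 in cluster 5, 9 in cluster 2 and 1 in cluster 3.

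The counts depended on single libraries and on the limit for C1q. Without the anterior library 31 genes were higher and 13 lower, without both whole-gland lanes 69 and 135, and without the posterior library 195 and 137. Leaving out whole-gland lane 1 gave 93 and 79, and leaving out lane 2 gave 186 and 256. None of the 261 called genes that could still be tested changed direction in these fits. Some did where members were left out. Without members with T or NK genes it was 2 of 236 called genes still tested. Without members with stromal markers it was 8 of 256, and without either kind 13 of 222. With stromal markers left out of both classes it was 0 of 234. With no C1q UMI allowed, 8 cells left the C1q-low class, the anterior sum fell under the minimum of 20 cells and was dropped, and no gene was called by edgeR, while 877 had an unadjusted p under 0.05. The anterior sum was dropped in the same way with a minimum of 3000 UMIs (32 higher, 14 lower), a hormone limit of 2% (21 and 10), a mitochondrial limit of 10% (78 and 42) and when members with T or NK genes were left out (24 and 19), so these counts combine both changes.

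Of the 10 genes with the largest difference among those higher, Nkg7, Gzma, Gzmm and Prf1 were on the NK marker list. Gzmbl2, a granzyme B-like protease, stood at 88.9, 122 and 392 CPM in the anterior, posterior and whole-gland C1q-low cells, against 0.811, 0.810 and 0.381 CPM in C1q-high cells (log2 fold change 7.99, SE 0.55, adjusted p = 0.00300, edgeR). Il2rb, a subunit of the interleukin 2 and 15 receptor, was at 69.1, 130 and 136 CPM against 2.43, 1.21 and 0.381 (6.42, SE 0.56, adjusted p = 0.00594). The groups did not overlap for either gene, but all 10 genes were chosen for being higher in all 3 suspensions. Klri1, an NK receptor (log2 fold change 6.26), Nkg7 (6.10), the granzyme Gzma (5.95), the chemokine Xcl1 (5.79), Cd8a, a coreceptor that rat NK cells also carry (5.69), Gzmm (5.61) and Prf1 (5.41) were likewise higher in all 3 suspensions.

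Cluster 1 held the largest share of the UMIs of these 9 genes, from 47.6% for Cd8a to 93.9% for Gzmm, and for Gzma 45.6% came from 1 cell. Without both whole-gland lanes the log2 fold change of Gzma was 4.55 and no longer called (adjusted p = 0.0862, edgeR). Mal, a membrane raft protein, was the 1 gene of the 10 whose largest share lay in another cluster (log2 fold change 5.19, SE 0.50, adjusted p = 0.00818). It stood at 118, 73.5 and 186 CPM against 7.30, 0.405 and 3.81, with 75.2% of UMIs in cluster 0. Once the 30 members with at least 2 T or NK genes were left out, and with them the anterior sum, 5 of the 10 genes could still be tested and 2 were called.

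In the other direction, of the 10 genes with the largest difference, Folr2 was on the tissue macrophage list and Trem2 and Gpr34 on the microglia list. Cd33, an inhibitory sialic acid-binding receptor, had no UMI in the C1q-low cells and stood at 77.8, 211 and 111 CPM in anterior, posterior and whole-gland C1q-high cells, which is at least 43.8-fold higher against a floor of 3 UMIs over all C1q-low cells (adjusted p = 0.0120, edgeR). Tnfsf13b, the B cell survival factor BAFF, also had none and was at least 18.4-fold higher in C1q-high cells (adjusted p = 0.0222). Ltc4s, which makes the lipid mediator leukotriene C4, had 1 UMI in C1q-low and 2352 in C1q-high cells (341-fold in CPM, exact 95% counting interval 61.1 to 13458, adjusted p = 0.00209). These genes were thus near or at 0 in every cluster.

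Fcrl2, an Fc receptor-like protein, had 2 UMIs in C1q-low cells (203-fold, 56.2 to 1680) and Trem2, a lipid receptor of macrophages and microglia, had 3 (90.5-fold, 30.9 to 439). Folr2, a folate receptor of resident macrophages, the channel Trpc6, the matrix protein Spp1 and the transcription factor Bhlhe41 had 1 UMI each, with ratios of 123, 86.4, 84.7 and 78.5. Gpr34, a lysophospholipid receptor of microglia, had 6 UMIs in C1q-low cells, at 0, 14.1 and 2.78 CPM against 104, 477 and 254 CPM (log2 fold change -5.79, SE 0.43, adjusted p = 0.00334, edgeR). All 10 stayed called without the posterior library or without the whole-gland lanes. Without the anterior library 6 of 10 did, and Tnfsf13b, Trpc6, Spp1 and Bhlhe41 did not.

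**Figure D4:**
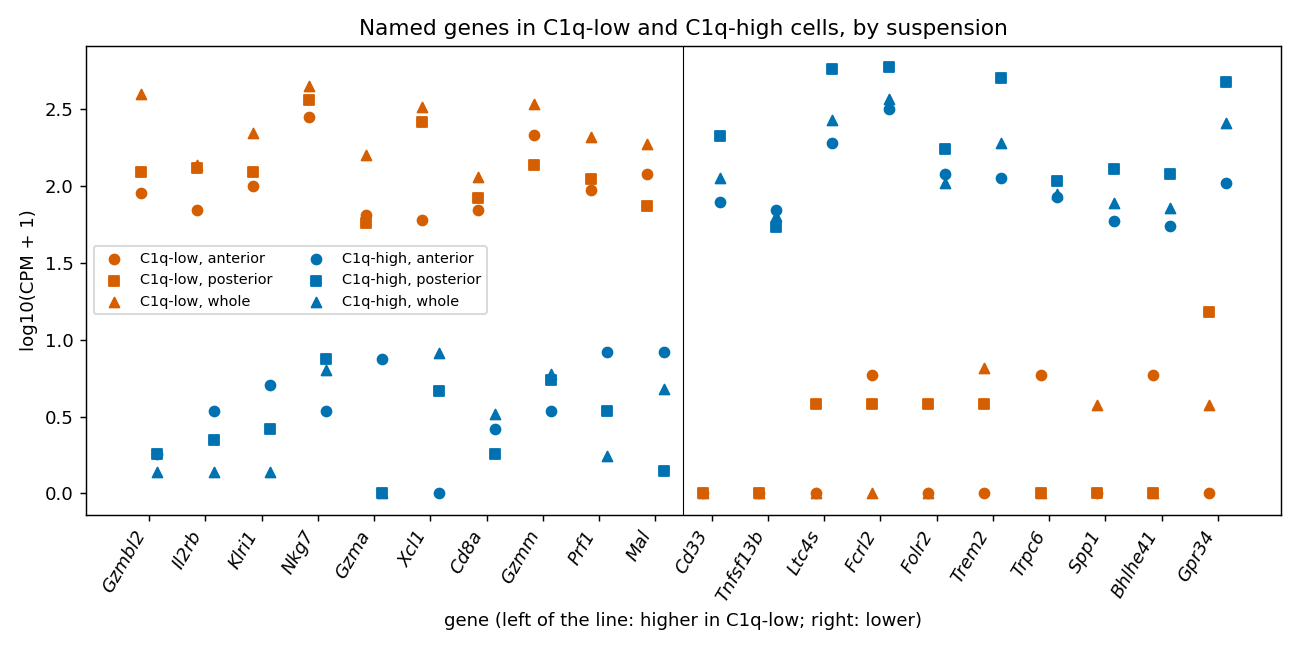
Levels as log10(CPM + 1) of the 10 genes with the largest differences in each direction, in the C1q-low (orange) and C1q-high (blue) cells of each suspension (shape). The classes do not overlap for any of the 20 genes, and Cd33 and Tnfsf13b lie at 0 in all 3 C1q-low sums. The genes were chosen for large differences that went the same way in all 3 suspensions, so the lack of overlap is no separate result.

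Marker lists of other cells moved with the class. The summed level of 13 NK markers was 2063, 2167 and 3871 CPM in anterior, posterior and whole-gland C1q-low cells against 186, 77.7 and 123 CPM in C1q-high cells, and 9 of 10 tested were higher. For 9 endothelial markers the sums were 1318, 1365 and 1597 CPM against 230, 589 and 328 CPM, with 3 of 8 higher. Tissue macrophage markers lay the other way, at 375, 237 and 718 CPM against 1684, 2485 and 1779 CPM. Of these markers 5 of 9 were lower, and Cd163 and Cd5l were at 0 in C1q-low cells. The part of these other cells in each difference below was not tested except by leaving the cells out.

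By function, 208 tested genes fell on 14 lists, and the median log2 fold change over all tested genes was 0.04. Few class II presentation genes were called. Of 13 tested, none was higher and 2 were lower, Lgmn, a lysosomal endopeptidase (log2 fold change -3.41), and the cathepsin Ctsh (-2.03), with a list median of -0.71. Of these 2 calls 1 was kept without the anterior library. Cd74 stood at 4408, 5423 and 11754 CPM in anterior, posterior and whole-gland C1q-low cells against 15966, 7251 and 14894 CPM. It was lower within each suspension, and the classes overlapped only across suspensions, but it did not pass (log2 fold change -0.97, SE 0.30, adjusted p = 0.169, edgeR). RT1-Da (-0.81, adjusted p = 0.234), also lower within each suspension, did not pass the test either. Nor did RT1-Db1 (-0.60, adjusted p = 0.412), which was lower in all but the posterior suspension. With the members with lymphocyte or stromal markers left out, an alternative chosen after seeing the data whose lobe sums held 10 cells each, the log2 fold change of RT1-Db1 was 1.13 and the log2 fold change of RT1-Bb was 1.58.

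Of 16 class I genes tested, 1 was called lower (RT1-CE10, log2 fold change -1.18), a call lost without the anterior and without the posterior library. RT1-A1 (-1.00, adjusted p = 0.0761, edgeR) and RT1-A2 (-0.87, adjusted p = 0.0721) lay lower in all 3 suspensions without overlap but did not pass. The list median was -0.23, and some members lay slightly higher, such as RT1-T24-4 (0.25) and Psmb9 (0.25). B2m, the class I light chain, did not pass (-0.46, SE 0.16, adjusted p = 0.219, edgeR), nor did the chaperone Calr (-0.29).

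Receptors for homing and adhesion were the list with most genes higher, 5 of 14, with 1 lower and a median of 1.46. Itgb7, an integrin subunit of gut homing, had 54 against 3 UMIs (124-fold, 40.3 to 622), S1pr4 34 against 2 and S1pr5 18 against 1. Cd44, the hyaluronan receptor, stood at 98.7, 93.3 and 106 CPM against 23.5, 6.07 and 18.3 CPM (log2 fold change 2.70, SE 0.38, adjusted p = 0.0194, edgeR). By share of UMIs, S1pr4 and S1pr5 lay mostly in cluster 0 (61.8 and 83.3%) and the largest share of Itgb7 was in cluster 2 (44.4%).

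Cx3cr1, the fractalkine receptor of microglia and resident macrophages, was lower, at 9.87, 19.8 and 16.7 CPM against 277, 632 and 383 CPM (log2 fold change -4.89, SE 0.30, adjusted p = 0.00209, edgeR). The most abundant genes of the list, Cxcr4, Itgb2 and Selplg, did not pass (0.32, 1.13 and -0.49). Without the anterior library 1 of the 5 higher calls was kept, and the call of Cx3cr1 was kept.

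Lysosomal, lipid and iron-handling genes were the list with most genes lower, 12 of 24, with none higher and a median of -1.56. Npc2, the lysosomal cholesterol carrier, stood at 143, 147 and 223 CPM in C1q-low cells against 2103, 3602 and 2601 CPM in C1q-high cells (log2 fold change -4.12, SE 0.30, adjusted p = 0.00323, edgeR). Gpnmb, a glycoprotein of lipid-laden macrophages, was lower by a log2 fold change of -3.48, the haem-degrading enzyme Hmox1 of -2.37, the cathepsin Ctsb of -1.89, the phagocyte glycoprotein Cd68 of -1.67 and the lipid carrier Apoe of -1.02. Ctsa, Ctsz, Lgmn, Axl and Ftl1 were also lower. Of the 12, 11 were still called without the posterior library, 9 without the whole-gland lanes, 5 without cells scored above 0.25 by Scrublet and 2 without the anterior library.

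Receptors of the Fc, siglec and TREM families were mostly lower, 8 of 13, with a median of -2.30. Fcgr3a, the low-affinity IgG receptor, stood at 0, 11.3 and 36.2 CPM against 684, 372 and 629 CPM (log2 fold change -5.20, SE 0.63, adjusted p = 0.0135, edgeR), and the high-affinity receptor Fcgr1a was lower as well (-3.16). Siglec5 and Lilrb3, both inhibitory receptors, had no UMI and were at least 10.4-fold and 15.3-fold higher in C1q-high cells. Sirpa, the CD47 receptor, and Cd300lf, with Cd33 and Trem2 above, made up the 8. Trem3, an activating receptor, was the 1 higher gene, with 20 against 2 UMIs. Without the anterior library 3 of the 8 lower calls were kept.

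Pattern recognition receptors had 3 of 18 lower, the lectins Clec4a1 (log2 fold change -3.13), Clec7a (-2.05) and Clec4a3 (-1.92), and Clec9a higher, with 34 against 3 UMIs (78.3-fold, 24.6 to 398). None of these 4 was called without the anterior library. Of lineage transcription factors, 3 of 21 were lower, among them Maf (-2.86), which is active in resident macrophages, and Cebpa (-3.00), a myeloid factor. Eomes, a factor of NK and T cells, was higher with 23 against 3 UMIs, 91.3% of them in cluster 1. Without the anterior library 1 of the 3 lower calls was kept and that of Eomes was lost.

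Among cytokines and their receptors, Csf1r, the receptor on which macrophages depend for survival, stood at 69.1, 53.7 and 139 CPM against 499, 1018 and 559 CPM (log2 fold change -3.10, SE 0.48, adjusted p = 0.0260, edgeR). Flt3 was higher at 19.7, 67.8 and 94.6 CPM against 3.24, 2.83 and 0.381 CPM (4.82, SE 0.78, adjusted p = 0.0299), with 61.3% of its UMIs in cluster 5. The TGF-beta receptor Tgfbr1 was also lower (-2.37), so that 1 of 18 was higher and 2 lower. None of the 3 was called without the anterior library.

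Of 12 chemokines, Ccl5 was higher (log2 fold change 4.80, SE 0.47, adjusted p = 0.00873, edgeR), with 88.0% of its UMIs in cluster 1, and Ccl6 (-1.25), Cxcl16 (-1.97) and Ccl12 were lower. Ccl12 had no UMI in C1q-low cells and was at least 12.2-fold higher in C1q-high cells. When the members with T or NK genes, and with them the anterior sum, were left out, the log2 fold change of Ccl5 was -2.48 and not called. The classes overlapped for Ccl6. The call of Ccl5 was kept without the anterior library and the 3 lower calls were lost. Of 11 other complement genes 3 were lower, among them C3 (-3.40) and the receptor C3ar1, which had 2 against 217 UMIs, and the membrane inhibitor Cd59 was higher (1.40). All 4 calls were lost without the anterior library.

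Granule and antimicrobial proteins had 6 tested genes, with Gzma and Prf1 higher. Slpi did not pass in the main test (log2 fold change 8.56, SE 1.71, adjusted p = 0.0540, edgeR), with 1945, 868 and 3258 CPM in anterior, posterior and whole-gland C1q-low cells against 64.0, 0 and 0 CPM. Lyz2 did not pass (-1.60, adjusted p = 0.0988). No gene was called among 16 interferon-induced genes (median 0.07), 20 immediate early genes (0.33) and 10 cell cycle genes (0.36). DESeq2 called 171 genes higher and 189 lower over all genes, and 1181 genes had an unadjusted p under 0.05 in edgeR.

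**Figure D5:**
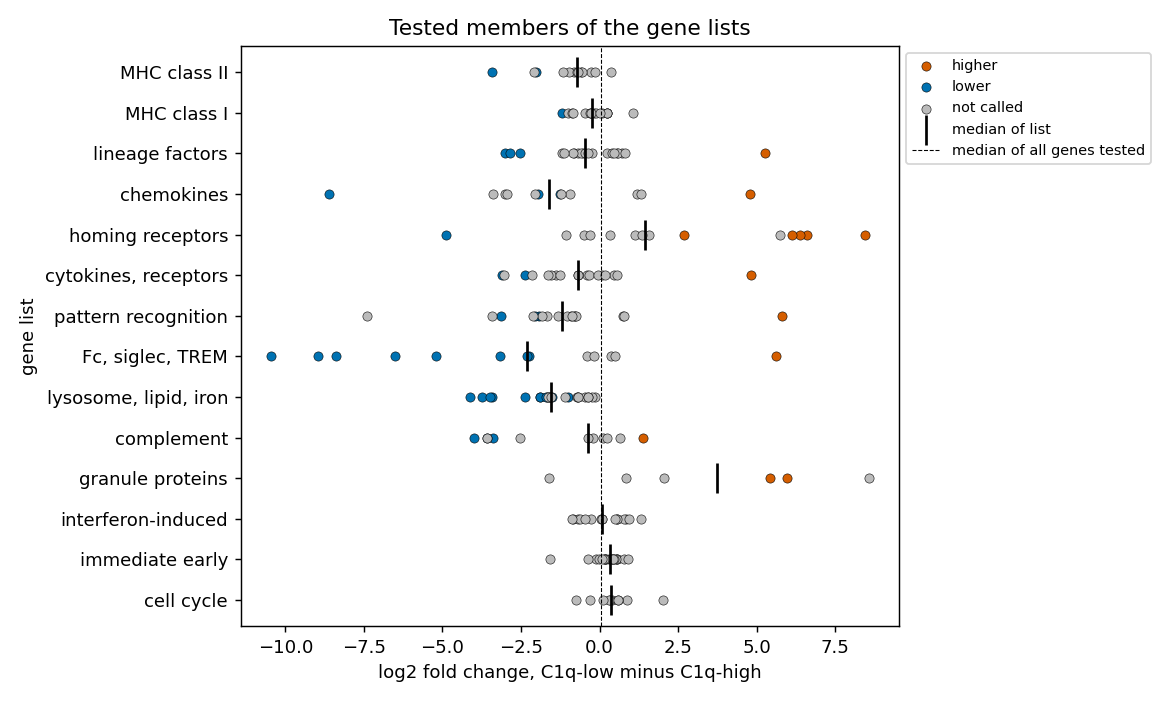
Log2 fold change (C1q-low minus C1q-high) of each tested gene of the 14 lists, coloured by call, with the list median as a bar and the median of all tested genes (0.04) as a dashed line. For genes with 0 UMIs in 1 class, such as Cd33, the plotted value is no estimate of a fold. Lysosomal genes have a median of -1.56, with 12 of 24 called lower, and homing receptors have 5 of 14 called higher.

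Between the lobes, the genes furthest higher in posterior C1q-low cells were those of cluster 5, which had 4 posterior cells and no anterior cell. With 1 library each there was no test. Siglech stood at 675 CPM in posterior C1q-low cells and had no UMI in anterior ones, at least 45.6-fold against a floor of 3 UMIs, with 685 and 539 CPM in the whole-gland lanes. Jchain was at 661 CPM against none (at least 44.7-fold), and 609 and 244 CPM in the lanes. AABR07034739.1 (at least 28.6-fold), AABR07060872.1 (26.5-fold, exact counting interval 14.1 to 3165, from 139 against 1 UMI) and LOC24906 (at least 21.9-fold) followed, with 85.0 to 100% of their UMIs in cluster 5. Tf, transferrin, came next (11.8-fold), but 88.7% of its UMIs lay in 1 cell. Without members with stromal markers, 3 of them in cluster 5, Siglech had 40 posterior UMIs (at least 6.49-fold), Jchain 25 (at least 4.05-fold) and LOC24906 7 (at least 1.13-fold), and AABR07034739.1 had none in either lobe.

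The genes furthest lower in posterior cells came almost wholly from 1 anterior cell each. The haemoglobin genes Hbb (1 posterior against 209 anterior UMIs), Hba-a2 and LOC100134871, the chemokine Ccl19 (0 against 134) and the glutathione peroxidase Gpx2 (2 against 115) had 98.3 to 100% of their UMIs in a single cell. Hba-a2 is listed under 2 identifiers, and how reads were divided between these near-identical genes is not given, so its value is uncertain. Of 660 genes with at least 100 UMIs over both libraries, 33 were at least 2-fold higher in posterior and 28 at least 2-fold lower, as a description of these 50 cells.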

How the data were processed

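The authors deposited a matrix of raw UMI counts per gene and cell barcode with its barcode list, made with Cell Ranger 3.1 per the submitters' processing notes; the genome build and annotation are not given in the sources used here. The barcode suffix, as deposited, gave each barcode's library. The members and gene lists were chosen with earlier results of these data known. Doublets were scored with Scrublet in each library and kept. Members were clustered with scanpy 1.11.5 (1000 variable genes, 20 components, 15 neighbours) and leidenalg 0.10.2. UMI counts were summed per class and suspension (6 sums of at least 20 cells, or 8 in the alternatives without stromal markers, lanes added) and tested with edgeR 4.0.16 (quasi-likelihood test, TMM, filterByExpr, a term for suspension, Benjamini-Hochberg adjustment), with DESeq2 1.42.0 as an alternative. The scripts were tested on made-up counts. C1q and the myeloid rule genes were left out of the tests. Named are the 10 genes with the largest difference in each direction that were called, differed the same way in 3 suspensions and reached 50 CPM, 5 leading genes per cluster, and list members, of which those called were chosen after their values were seen. T and NK cells were not compared with the members, because only the whole-gland suspension reached 20 such cells. Alternatives changed the limits, filters, scaling and libraries. Intervals are exact and cover counting error only. Some genes of the lists are counted but not reported here by name.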

Additional observations from a re-analysis of the deposited data

Results flagged for a closer look

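Ccl2, a chemokine that attracts monocytes, differed between the classes in opposite directions in the anterior and posterior libraries. Its difference between C1q-low and C1q-high cells, as log2(CPM + 1), was 3.25 in the anterior library, -1.56 in the posterior library and 1.65 in the whole glands, so that posterior minus anterior was -4.81. This difference was not tested, with 1 library per lobe. Ccl2 stood at 2182, 79.1 and 810 CPM in anterior, posterior and whole-gland C1q-low cells against 229, 235 and 258 CPM in C1q-high cells. It had a UMI in 17 of 102 C1q-low cells. In the anterior library 1 cell held 42.6% of the UMIs of all members, so the anterior value came mostly from that cell. By cluster, the largest share (45.2%) lay in cluster 4, endothelial-like. Over all suspensions Ccl2 was not called (adjusted p = 0.630, edgeR).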

How the results depend on the processing

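Genes called higher and lower numbered 298 and 319 with C1q-high cells at 10 or more C1q UMIs, 0 and 0 with no C1q UMI allowed (877 at an unadjusted p under 0.05, edgeR), 32 and 14 from 3000 UMIs, 21 and 10 at a hormone limit of 2%, 78 and 42 at a mitochondrial limit of 10%, 404 and 521 with no low-count filter, 85 and 80 without cells scored above 0.25 by Scrublet, 31 and 13 without the anterior library, 69 (higher) without the whole-gland lanes and 195 (higher) without the posterior library. Leaving out either whole-gland lane gave 93 to 186 higher and 79 to 256 lower. Leaving out members with lymphocyte markers gave 24 and 19. In this setting, with no C1q UMI, from 3000 UMIs and at the hormone and mitochondrial limits, the anterior C1q-low sum held fewer than 20 cells and was dropped too. Alternatives added after seeing the data, with sums of 10 to 44 C1q-low cells and so not comparable with the other counts, gave 434 and 678 without members with stromal markers, 329 and 595 without either kind, and 336 and 424 without stromal markers in both classes. Counts stayed within 1.5 times with other size factors (125 and 135), DESeq2 (171 and 189) and no suspension term (187 and 179).

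Shares of C1q-low cells moved in the anterior library to 0.167% from 3000 UMIs and 0.212% with 4 of 5 myeloid genes, in the posterior library to 1.17% at a mitochondrial limit of 10%, 0.381% with 4 of 5 genes and 0.432% without stromal markers, and in lane 1 to 0.193% without lymphocyte markers.

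Directions turned in 14 of the values that are not counts of genes or shares. For fold changes this counts genes called in the main test, or called the other way in the alternative. Changes of sign without either call were not counted. Without lymphocyte markers, the log2 fold change of Ccl5 was -2.48. Without stromal markers the log2 fold change of Ifitm3 was -3.86, the log2 fold change of Fos -1.06 and the log2 fold change of RT1-Bb 1.09. Without either the log2 fold change of RT1-Db1 was 1.13, the log2 fold change of RT1-Bb 1.58, the log2 fold change of Ccl5 -1.78, the log2 fold change of Tgfbr2 -1.31, the log2 fold change of Cd300a 1.19, the log2 fold change of Cfp 1.35, the log2 fold change of Ifitm3 -3.71 and the log2 fold change of Ccl6 0.41. The log2 posterior to anterior ratio of Tf was -0.65 without stromal markers and -0.58 without either. These alternatives remove members, and beyond that the cause was not tested.

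The test compared the classes within each suspension. By replicate number, no paired analysis was possible because the numbers mark only the lanes of the whole-gland suspension. Depth limits the members, whose sums held 146090 to 353882 UMIs per library, and genes with few UMIs were given as ratios with counting intervals.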
